A study of Mus musculus with 10 samples.

Results

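Fibroblast growth factor (FGF) receptors and their main ligands were followed across cultured mouse astrocytes and the gliomas derived from them. The genes were taken by symbol: the receptor genes Fgfr1, Fgfr2, Fgfr3 and Fgfr4, the receptor-like gene Fgfrl1, and the ligand genes Fgf1, Fgf2, Fgf7, Fgf10 and Fgf18. These are 10 of the 23230 features of the expression table, and every one of them was found. RNA sequencing compared 3 groups, with 10 libraries in all. AstroEGFR* (3 libraries) were astrocytes from the cerebral cortex of C57BL/6 mice lacking p16/p19 (Ink4a/Arf), taken at postnatal day 5 and infected with a retroviral vector for human EGFRvIII, a constitutively active receptor. PT (4 libraries) were glioma propagating cells grown from the tumours that AstroEGFR* formed in CD1 Nude mice. AstroEGFR* Zfp423 (3 libraries) were AstroEGFR* that also carried a vector for Zfp423, a zinc finger transcription factor. All groups share the deletion and EGFRvIII, and each library is 1 culture at a low passage. The 3 astrocyte batches were numbered in the titles, and of the PT cultures 2 trace back to batch 1 (PT1, PT4), with PT2 derived from batch 2 and PT3 derived from batch 3. AstroEGFR* were cultured in medium with serum, whereas PT were cultured without serum on laminin in medium that contained EGF and murine FGF2 protein. Medium and the tumour step therefore cannot be told apart between these groups, and PT received FGF2 from outside.

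FGFs bind receptor tyrosine kinases together with heparan sulfate, and the activated receptor signals through the docking protein FRS2 to the RAS and MAP kinase cascade. The response includes its own inhibitors, the Sprouty proteins and the phosphatase DUSP6. In the brain, FGFR1, FGFR2 and FGFR3 are the receptors known from the astroglial lineage, FGF1 and FGF2 are ligands without a classical signal peptide, and FGF7 and FGF10 are mesenchymal ligands that act mainly on one splice form of FGFR2. Splice forms of a receptor could not be told apart, because the table has 1 value per symbol.

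Several properties of the libraries bear on these genes. The depth relative to PT1, estimated from the smallest steps of the values, was 0.0718 in AstroEGFR*3 and 0.0928 in PT3, and 0.507 to 0.979 in the other libraries. FPKM are fragments per length of transcript, scaled to the size of the library. Small RNA genes took 0.213%, 27.4% and 4.33% of the summed FPKM in AstroEGFR*1, 2 and 3. Their share was 0.417%, 33.6%, 6.06% and 0.606% in PT1, PT2, PT3 and PT4. In AstroEGFR* Zfp423 it was 34.5%, 34.7% and 53.9% in batches 1, 2 and 3, each above AstroEGFR* of the same batch. The part of this in the differences between the groups was not tested. Gapdh, used by every cell, was listed at 0.0106 to 50.1 FPKM, so a value of 0 is given below as listed and not as absence. Astrocyte markers (8 genes) summed to 509 to 1050 FPKM in AstroEGFR* and 352 to 921 in PT, and to 199, 59.4 and 904 FPKM in AstroEGFR* Zfp423 of batches 1, 2 and 3. Endothelial markers (6 genes) summed to 0.426 to 14.4 FPKM over the 10 libraries, with Flt1 at up to 12.1 FPKM and Cldn5 at up to 0.0129 FPKM. Markers of fibroblasts and meninges (10 genes, none of them at 0 throughout a group) summed to 385, 545 and 6030 FPKM in AstroEGFR*1, 2 and 3 and to 18.0 to 585 FPKM in PT. In AstroEGFR* Zfp423 the sums were 4920, 7340 and 248 FPKM in batches 1, 2 and 3. Markers of microglia (6 genes) summed to 435 and 264 FPKM in AstroEGFR*1 Zfp423 and AstroEGFR*2 Zfp423 but to 0.152 FPKM in AstroEGFR*3 Zfp423, against 5.74 to 38.6 FPKM in AstroEGFR* and 0.219 to 2.52 FPKM in PT. AstroEGFR*3 Zfp423 thus stood apart from the other libraries of its group. In bulk RNA, fewer cells of a type and less RNA per cell cannot be told apart.

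**Figure D1:**
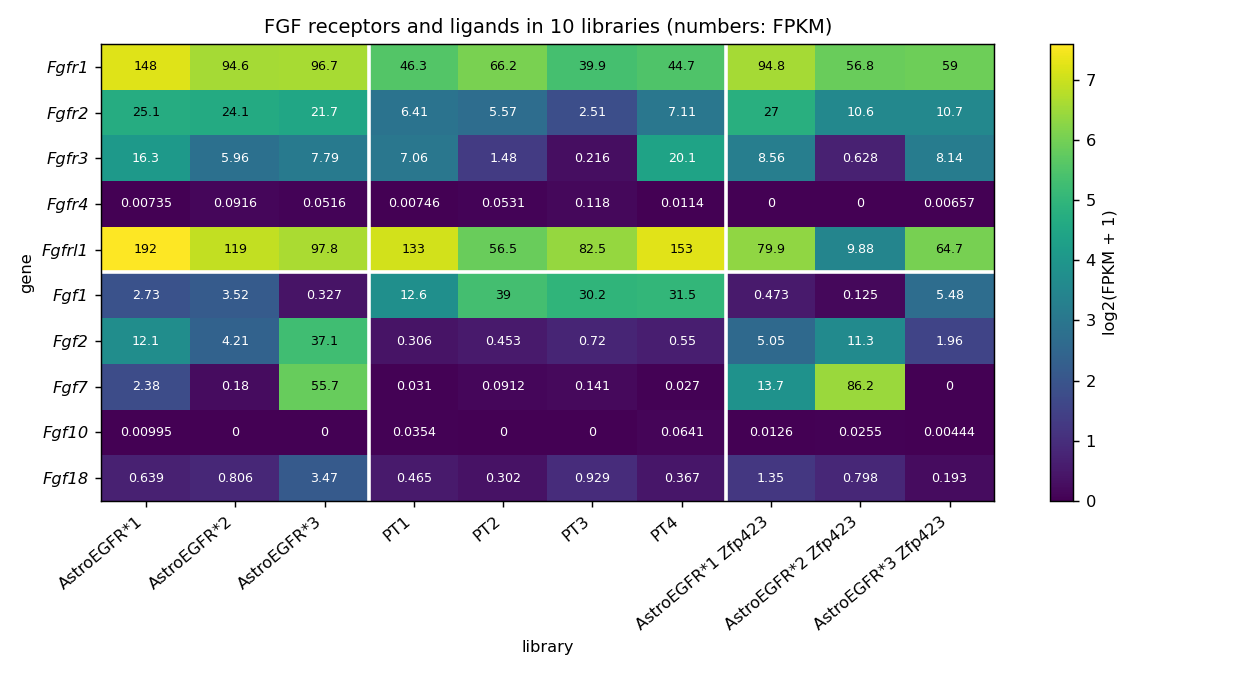
FPKM of the 10 FGF receptor and ligand genes (rows) in the 10 libraries (columns). The colour is log2(FPKM + 1) and the number in each cell is the FPKM. Fgfr1 is at 39.9 FPKM or more throughout, Fgf1 is high in PT, Fgf2 is below 1 FPKM in PT, and Fgf7 is high in 3 libraries.

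In AstroEGFR*, Fgfrl1 and Fgfr1 had the highest FPKM of the 10 genes. Fgfrl1, which encodes a receptor without the kinase domain, was at 97.8 to 192 FPKM, and Fgfr1 at 94.6 to 148 FPKM, so the ranges of these neighbours in the order overlapped. Fgfr2 followed at 21.7 to 25.1 FPKM and Fgfr3 at 5.96 to 16.3 FPKM, and these ranges overlapped neither each other nor those above. Fgfr4 did not exceed 0.0916 FPKM. Among the ligands of AstroEGFR*, the order by the median was Fgf2 at 4.21 to 37.1 FPKM, Fgf1 at 0.327 to 3.52 FPKM, Fgf7 at 0.180 to 55.7 FPKM and Fgf18 at 0.639 to 3.47 FPKM. Fgf2 and Fgf1 did not overlap in that order, and the neighbours after them did. Fgf10 was listed at 0 in 2 of the 3 libraries and at 0.00995 FPKM in the third. In PT the order of the ligands was another one, with Fgf1 at 12.6 to 39.0 FPKM above the other 4 ligands and without overlap with any of them, while Fgf2 at 0.306 to 0.720 FPKM and Fgf18 at 0.302 to 0.929 FPKM overlapped.

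The comparison of PT with AstroEGFR* asks what differs between the cells of the tumours and the astrocytes they came from. Of the 10 genes, 7 averaged 1 FPKM or more in the 7 libraries compared and were tested with limma on log2(FPKM + 1), and 2 of the 7 passed an adjusted p of 0.05 (Benjamini-Hochberg over 12261 features). These were Fgfr2, which fell, and Fgf1, which rose. Over all features tested, 1.24% passed, 0.318% higher and 0.922% lower in PT. With the batch as a block, 475 features passed in place of 152 (3.87%, with 1.19% higher and 2.68% lower in PT), and 3 of the 7 genes, Fgf2 being added. With a library left out, 0 to 1 of the 7 genes passed. The groups did not overlap for 5 of the 7 genes, Fgf1 higher and Fgfr1, Fgfr2, Fgf2 and Fgf7 lower in PT, against 14.8% of all features tested, 6.95% higher and 7.81% lower. An exact two-sided permutation test of 4 against 3 libraries cannot go below 0.0286, which any gene without overlap reaches, so it adds nothing for these 5 genes, and it gave p = 0.429 for Fgfr3 and for Fgfrl1. The low genes Fgfr4, Fgf10 and Fgf18 were under the filter and were not tested. Fgf2 and Fgf7 were under 1 FPKM in every PT library and passed the filter through AstroEGFR*, so that genes of this kind could hardly pass it without a difference, and the call of Fgf2 with the block is a description and no support.

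Fgfr2 encodes a receptor tyrosine kinase of the astroglial and oligodendroglial lineages. It was listed at 25.1, 24.1 and 21.7 FPKM in AstroEGFR*1, 2 and 3 and at 6.41, 5.57, 2.51 and 7.11 FPKM in PT1, PT2, PT3 and PT4. Every PT library lay below every AstroEGFR* library, and the AstroEGFR* values were close to each other. The mean FPKM was 4.37-fold lower in PT, and the log2 fold change was -2.01 (SE 0.33, limma adjusted p = 0.0341, n = 4 against 3). Compared within batches, the difference in log2(FPKM + 1) was -1.82 and -1.68 in batch 1, -1.93 in batch 2 and -2.69 in batch 3. With the batch as a block, which pairs these libraries, the adjusted p from limma was 0.0201. Of the 8 astrocyte markers 1 passed in that fit, against 3.87% of all features, the water channel gene Aqp4, lower in PT (limma adjusted p = 0.0395), and its part in the Fgfr2 difference was not tested. Without the block 0 of the 8 passed by limma, 4 having higher and 4 lower fitted values in PT (median log2 fold change -0.08). Gja1, a gap junction gene, was at 202 to 309 FPKM in PT and 85.0 to 196 FPKM in AstroEGFR*, the reverse of Fgfr2. Leaving out a library gave a log2 fold change of -2.15 to -1.74, and the adjusted p stayed under 0.05 only without PT3. Without AstroEGFR*1, AstroEGFR*2, AstroEGFR*3, PT1, PT2 and PT4 in turn, the limma adjusted p was 0.17, 0.0936, 0.108, 0.0715, 0.0734 and 0.0754. With PT1 and PT4, both from batch 1, averaged, the limma adjusted p was 0.0688, which did not pass.

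Fgf1, a ligand that binds all FGF receptors, went the other way. In AstroEGFR*1, 2 and 3 it was listed at 2.73, 3.52 and 0.327 FPKM, and in the PT cultures numbered 1 to 4 at 12.6, 39.0, 30.2 and 31.5 FPKM. Each PT value was above each AstroEGFR* value, with PT1 nearest to them. The mean FPKM was 12.9-fold higher in PT, with a log2 fold change of 3.27 (SE 0.53, limma adjusted p = 0.0338, and 0.0344 with the batch block). Within batches the difference in log2(FPKM + 1) was 1.87 and 3.12 in batch 1, 3.15 in batch 2 and 4.55 in batch 3. Leaving out a library gave 2.73 to 3.62, and the adjusted p from limma was 0.134, 0.0529, 0.0845, 0.0833, 0.075 and 0.104 without AstroEGFR*1, AstroEGFR*2, AstroEGFR*3, PT2, PT3 and PT4, so that the call held only without PT1. These fold changes are on the log2(FPKM + 1) scale and understate the change of low genes. On log2(FPKM + 0.1) that of Fgf1 was 4.01 (SE 0.77) and did not pass, at a limma adjusted p of 0.0579. With PT1 and PT4, both from batch 1, averaged, the limma adjusted p of Fgf1 was 0.0562. AstroEGFR*3, the lowest for Fgf1, had a depth of 0.0718 relative to PT1.

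**Figure D2:**
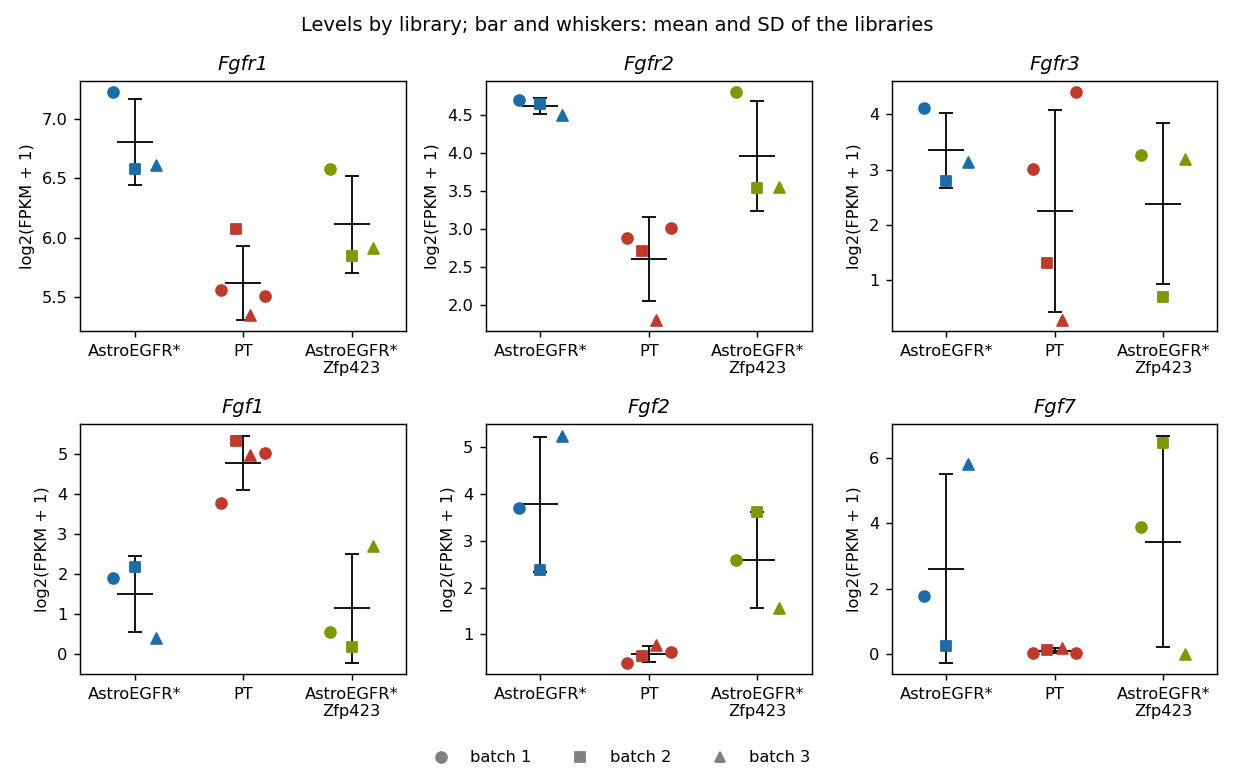
log2(FPKM + 1) of 6 genes by group, with 1 point per library, the marker shape giving the astrocyte batch and the bar and whiskers the mean and SD. All 4 PT libraries lie below AstroEGFR* for Fgfr1, Fgfr2, Fgf2 and Fgf7 and above it for Fgf1, while the groups overlap for Fgfr3.

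Fgf2 encodes the ligand that was also supplied as protein in the PT medium. Its transcript was listed at 12.1, 4.21 and 37.1 FPKM in AstroEGFR*1, 2 and 3, and at 0.306, 0.453, 0.720 and 0.550 FPKM in PT1, PT2, PT3 and PT4. PT stayed below 1 FPKM throughout and close to each other, and AstroEGFR* were all higher and spread widely. The mean FPKM was 35.1-fold lower in PT. The log2 fold change was -3.20 (SE 0.62), and the limma adjusted p of 0.0624 did not pass. With the batch as a block it was -3.18 (SE 0.48) with a limma adjusted p of 0.0353, which passed. On log2(FPKM + 0.1) it was -4.41 (SE 0.73) and passed at a limma adjusted p of 0.041, where the filter limit given above holds too. Within batch 1 the FPKM of AstroEGFR*1 was 39.6-fold that of PT1 and 22.0-fold that of PT4, and the ratio was 9.30-fold in batch 2 and 51.5-fold in batch 3. With a library left out, the adjusted p from limma was 0.0262 without AstroEGFR*2, the library with the lowest Fgf2 of its group, and did not pass otherwise. It was 0.241, 0.0971, 0.136, 0.125, 0.0976 and 0.154 without AstroEGFR*1, AstroEGFR*3, PT1, PT2, PT3 and PT4.

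Fgf2 shares 640 bases of exon, 9.44% of its exon length in GENCODE vM21, with Nudt6 on the opposite strand. The sources differ on whether the libraries kept the strand, so reads of the shared stretch cannot be assigned with certainty. Nudt6, a nudix hydrolase gene, was listed at 12.3, 4.41 and 13.0 FPKM in AstroEGFR*1, 2 and 3 and, in the order of their numbers, at 5.58, 2.36, 2.56 and 4.39 FPKM in the PT cultures, so the groups overlapped. In PT the Nudt6 values were above those of Fgf2 in every library. Fgfr2 shares 314 bases of exon, 3.04% of its length, with annotated transcripts of Ctbp2 on the same strand, and Ctbp2, a transcriptional corepressor gene, was at 35.6 to 81.5 FPKM in AstroEGFR* and 23.4 to 34.6 FPKM in PT.

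The stretches before the start sites of Fgf2 and Fgfr2 are shown because Fgf2 is the ligand that the PT medium supplied and Fgfr2 the receptor that fell in PT. They come from RefSeq on GRCm38.p6, run 5′ to 3′ from 250 bases before to 50 bases after the annotated start, and capitals mark GGGCGG, the GC box, searched on both strands. Of the 10 genes, 8 had a sequence in the table.
Fgf2, chr3:37348403-37348702, plus strand: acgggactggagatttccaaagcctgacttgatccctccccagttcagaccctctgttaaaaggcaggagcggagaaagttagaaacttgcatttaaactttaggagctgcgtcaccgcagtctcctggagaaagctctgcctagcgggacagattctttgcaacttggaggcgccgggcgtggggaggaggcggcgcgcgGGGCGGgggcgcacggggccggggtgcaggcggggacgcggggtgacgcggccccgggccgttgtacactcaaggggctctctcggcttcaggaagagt
Fgfr2, chr7:130266759-130267058, minus strand: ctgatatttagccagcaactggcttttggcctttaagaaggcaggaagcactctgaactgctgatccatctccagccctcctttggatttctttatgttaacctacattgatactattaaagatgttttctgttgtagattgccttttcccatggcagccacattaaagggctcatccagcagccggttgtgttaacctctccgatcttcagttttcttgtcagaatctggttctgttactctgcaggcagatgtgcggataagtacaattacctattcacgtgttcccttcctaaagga
The Fgf2 stretch held 1 GC box, 24 CpG dinucleotides and 62.7% G and C. The Fgfr2 stretch held 0 GC boxes, 4 CpG and 43.7% G and C. Across all 32851 promoter sequences of the same length, 35.7% held GGGCGG, and the medians were 7 CpG and 52.7% G and C, so the 2 stretches lay on opposite sides of the medians. Of the others, Fgfr3 held 4 and 2 GC boxes at 2 start sites, Fgfrl1 and Fgfr4 4 each, Fgf10 and Fgf18 1 each, and Fgf7 0. TATAAA, present in 13.6% of all promoter sequences, was in none of the 8 genes' stretches. No match says only that these letters are not in the windows shown or searched.

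Fgfr1 was the most abundant signalling receptor in every library. It was listed at 148, 94.6 and 96.7 FPKM in AstroEGFR*1, 2 and 3, and PT1, PT2, PT3 and PT4 had 46.3, 66.2, 39.9 and 44.7 FPKM. No PT value reached the lowest AstroEGFR* value, PT2 being the nearest. The log2 fold change was -1.18 (SE 0.28) and did not pass, with a limma adjusted p of 0.109, or 0.065 with the batch block. The value in PT was lower within each batch, by 1.43-fold in batch 2, 2.42-fold in batch 3, and 3.19-fold and 3.31-fold in batch 1.

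Fgfr3, a marker of the astrocyte lineage, varied most among the receptors within PT. It was at 16.3, 5.96 and 7.79 FPKM in AstroEGFR*1, 2 and 3 and at 7.06, 1.48, 0.216 and 20.1 FPKM in PT1, PT2, PT3 and PT4. PT4 was above every AstroEGFR* library, PT1 lay within their range, and PT2 and PT3 lay below it. PT3 was also 1 of the 2 shallow libraries. The highest PT value was 93.2 times the lowest, against 2.74 times in AstroEGFR*. The log2 fold change was -1.10 (SE 0.93, limma adjusted p = 0.683). On the opposite strand, 13.9% of its exon length overlaps G630022F23Rik, a feature not in the table.

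Fgfrl1 had a log2 fold change of -0.40 (SE 0.42, limma adjusted p = 0.749). It was listed at 192, 119 and 97.8 FPKM in AstroEGFR*1, 2 and 3 and at 133, 56.5, 82.5 and 153 FPKM in PT1, PT2, PT3 and PT4, and the groups overlapped. Within batches Fgfrl1 was lower in each PT library, with differences in log2(FPKM + 1) of -0.53 and -0.33 in batch 1, -1.06 in batch 2 and -0.24 in batch 3, and with the batch block the log2 fold change was -0.56 (SE 0.21, limma adjusted p = 0.173). Relative to Fgfr1 of the same library, Fgfrl1 was at 1.01 to 1.3 in AstroEGFR* and 0.854 to 3.42 in PT.

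Fgfr1 to Fgfr4 summed to 125 to 189 FPKM in AstroEGFR* and 42.7 to 73.3 FPKM in PT. Fgfr1 made up 75.8% to 78.1% of that sum in AstroEGFR* and 62.1% to 93.3% in PT. The share of Fgfr2 was 13.2% to 19.3% in AstroEGFR* and 5.87% to 10.7% in PT, without overlap. The share of Fgfr3 was 4.78% to 8.62% in AstroEGFR* and reached from 0.506% in PT3 to 28.0% in PT4. Thus the composition was nearly even among AstroEGFR* libraries and uneven among PT.

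Of the ligands, the balance of Fgf1 and Fgf2 was on opposite sides of 1 in the 2 groups. Fgf1 FPKM divided by Fgf2 FPKM was 0.225, 0.836 and 0.00884 in AstroEGFR*1, 2 and 3, and 41.3 to 86.1 in PT. This ratio is within a library and so is not affected by the scaling between libraries. The 5 ligands summed to 8.72 to 96.6 FPKM in AstroEGFR* and 13.5 to 39.9 FPKM in PT, which overlapped.

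**Figure D3:**
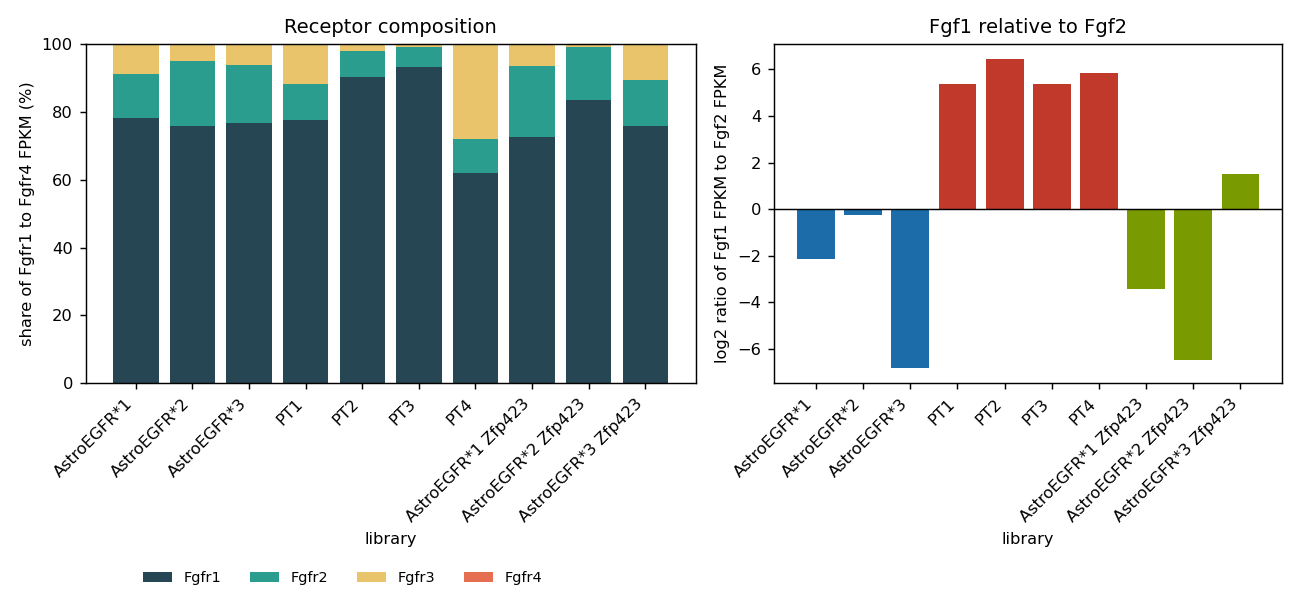
Left, the share of each receptor in the summed FPKM of Fgfr1 to Fgfr4 by library in percent, with Fgfr1 at 62.1% to 93.3%. Right, the log2 ratio of Fgf1 to Fgf2 FPKM by library, coloured by group, with all 4 PT libraries at 5.37 to 6.43 and the 3 AstroEGFR* libraries at -6.82 to -0.26.

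Fgf7, a ligand made by mesenchymal cells, was listed at 2.38, 0.180 and 55.7 FPKM in AstroEGFR*1, 2 and 3 and at 0.0310, 0.0912, 0.141 and 0.0270 FPKM in PT1, PT2, PT3 and PT4. PT was lower throughout, but AstroEGFR*3 alone carried most of the AstroEGFR* mean and AstroEGFR*2 was near PT3. The log2 fold change was -2.51 (SE 1.16, limma adjusted p = 0.408), and with AstroEGFR*3 left out Fgf7 was under the filter. The fibroblast and meningeal markers were highest in the same AstroEGFR* library. Between PT and AstroEGFR*, 10 of 10 of these markers were tested, all had lower fitted values in PT, 8 had an unadjusted p under 0.05 against 13.6% of all features, and 1 was called lower, namely Pdgfrb, a pericyte and fibroblast receptor. Pdgfrb was at 27.9 to 65.7 FPKM in AstroEGFR* and 0.182 to 4.94 FPKM in PT (log2 fold change -4.14, SE 0.57, limma adjusted p = 0.02), and it was not called without AstroEGFR*1, AstroEGFR*3 or PT4, at a limma adjusted p of 0.109, 0.0845 and 0.0678. Nor was it called with no filter, with all 10 libraries in 1 fit, without batch 3 and with PT1 and PT4 averaged, at a limma adjusted p of 0.0505, 0.0715, 0.0797 and 0.0551. With the batch block 4 of the 10 were called lower, Col1a1, Col1a2, Pdgfrb and Postn, against 2.68% of all features. The part of this marker difference in the values of Fgf7 and Fgf2 was not tested. AstroEGFR*2 and PT3 had marker sums near each other, 545 and 585 FPKM, with Fgf2 at 4.21 and 0.720 FPKM and Fgf7 at 0.180 and 0.141 FPKM.

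**Figure D4:**
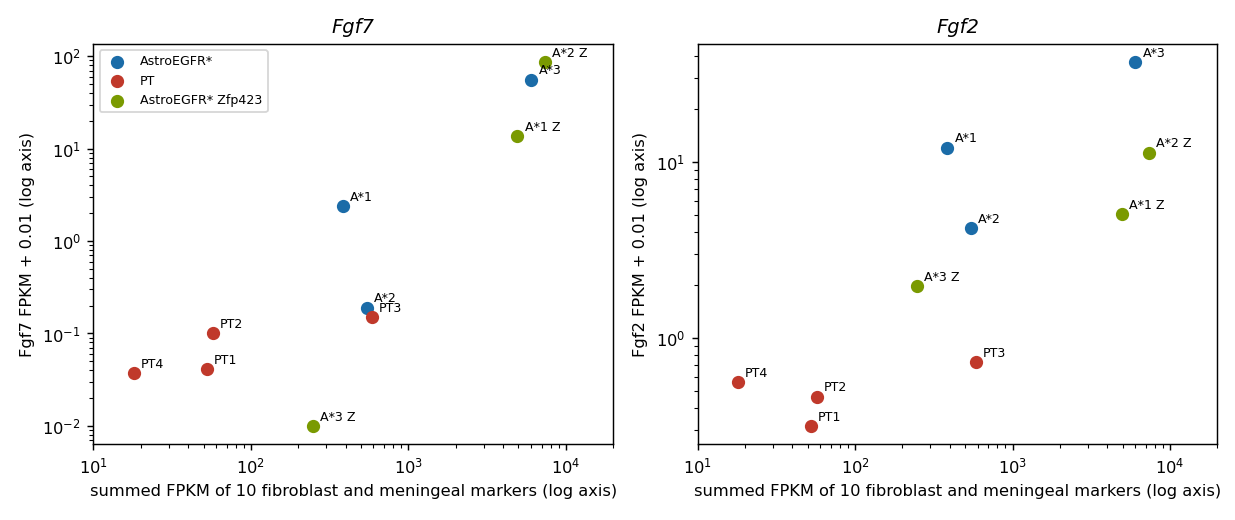
FPKM + 0.01 of Fgf7 (left) and Fgf2 (right) against the summed FPKM of 10 fibroblast and meningeal markers, both on log axes, with 1 point per library (A*1 to A*3, AstroEGFR*; Z, with Zfp423). The 3 libraries with marker sums of 4920 to 7340 FPKM have Fgf7 at 13.7 to 86.2 FPKM, and all 4 PT libraries have Fgf2 below 1 FPKM.

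Fgf18, a ligand with preference for FGFR3, was listed at 0.639, 0.806 and 3.47 FPKM in AstroEGFR*1, 2 and 3 and at 0.465, 0.302, 0.929 and 0.367 FPKM in PT1, PT2, PT3 and PT4. The groups overlapped through PT3. Each PT library was below AstroEGFR* of its own batch, by 1.37-fold and 1.74-fold in batch 1, 2.67-fold in batch 2 and 3.74-fold in batch 3, with no test since Fgf18 was under the filter. Fgf10, a mesenchymal relative of Fgf7, did not exceed 0.0641 FPKM in any library, and Fgfr4 did not exceed 0.118 FPKM. For Fgf10 and Fgfr4, at these levels and with shallow libraries, a difference was not detectable.

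The rest of the pathway was read from lists chosen by function. Of 12 enzymes that build or trim heparan sulfate, all tested, Sulf2 alone passed between PT and AstroEGFR*, against 1.24% of all features. Sulf2 encodes an endosulfatase that removes 6-O-sulfate groups from heparan sulfate outside the cell. It was at 19.2 to 20.7 FPKM in AstroEGFR* and 79.4 to 166 FPKM in PT, so it rose without overlap, as 6.95% of all features were higher without overlap (log2 fold change 2.43, SE 0.30, limma adjusted p = 0.0136). With a library left out it was not called without AstroEGFR*1 or AstroEGFR*3, at a limma adjusted p of 0.0809 and 0.0635, nor without both libraries of batch 3, at 0.0862, nor with all 10 libraries in 1 fit, at 0.0836. Of the other 11 enzymes, 10 had lower fitted values in PT, among them the sulfotransferase genes Hs6st1, Hs6st2 and Hs3st1 with an unadjusted p under 0.05 (4 of 12 with Sulf2, against 13.6% of all features). Hs3st1 was under 1 FPKM in every PT library and passed the filter only through AstroEGFR*, so its p is no support. The median of the 12 was -0.48 against 0.03 for all features.

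Of 12 targets and feedback inhibitors of the pathway, 11 were tested and 0 passed the adjusted threshold by limma in PT against AstroEGFR*, while 4 had an unadjusted p under 0.05, all higher in PT, against 13.6% of all features in either direction. Their median log2 fold change was 1.08, against 0.03 for all features, and 9 of 11 had higher fitted values. Spry4, a Sprouty inhibitor, was at 2.42 to 30.4 FPKM in AstroEGFR* and 42.4 to 72.6 FPKM in PT (log2 fold change 2.41, SE 0.67, limma adjusted p = 0.161). Etv1, an ETS transcription factor gene, was at 2.82 to 7.83 FPKM and 9.14 to 39.4 FPKM (log2 fold change 1.89, SE 0.51, limma adjusted p = 0.147). Neither passed with the batch block, at 0.0841 and 0.111. The other 2 of the 4 were Spry2, at 14.0 to 45.7 FPKM in AstroEGFR* and 60.1 to 124 FPKM in PT, and Etv5, at 29.6 to 102 FPKM and 105 to 172 FPKM. These genes respond to other receptor tyrosine kinases as well, among them EGFR, and EGF was also in the PT medium.

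The other lists held no call between PT and AstroEGFR*. Of 12 adaptor genes, 12 were tested and the largest differences were those of Shc1 (log2 fold change -0.93, limma adjusted p = 0.298) and Gab1 (0.55, limma adjusted p = 0.712), with a median of -0.08. Of 17 co-receptor and binding protein genes, 13 were tested, with a median of -0.63. Their largest differences were those of the glypican gene Gpc4 (-1.93, limma adjusted p = 0.408) and the syndecan gene Sdc1 (-1.19, limma adjusted p = 0.328). Of 4 intracellular FGF homologous factors, 2 were tested, Fgf11 (1.18, limma adjusted p = 0.296) and Fgf13 (-0.26, limma adjusted p = 0.904). Of 13 other secreted ligands, only Fgf21, an endocrine FGF, reached the filter. It was listed at 0.0413 to 4.33 FPKM in AstroEGFR* and from 0.014 to 106 FPKM in PT, a range that takes in that of Fgf1 (2.31, SE 1.68, limma adjusted p = 0.619). At an unadjusted p under 0.05, limma gave 1 adaptor gene, Shc1, 2 co-receptor genes, Sdc1 and the glypican gene Gpc2, and Fgf11. The last was under 1 FPKM in every AstroEGFR* and AstroEGFR* Zfp423 library and passed the filter only through PT, here and against the vector group, so its p is a description. Of all features 13.6% were under it, so 1 of 12 adaptors and 2 of 13 co-receptor genes are near the background.

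The comparison of AstroEGFR* Zfp423 with AstroEGFR* asks what differed with the vector, with the batch as a block. The share of small RNA genes given above was also higher with the vector in every batch. Zfp423 itself was listed at 4.30, 3.25 and 3.48 FPKM in AstroEGFR*1, 2 and 3 and at 15.7, 9.73 and 105 FPKM in the same batches with the vector, and at 0.641 to 2.78 FPKM in PT. It was higher with the vector in every batch, and far higher in batch 3. Of the FGF genes, 8 of 10 were tested and 0 passed by limma, as did 0 of 12366 features (0.0%). At an unadjusted p under 0.05 there were 913 features (7.38%), among them Fgfr1 and Fgfrl1, both lower. Without the block, 0 of the 8 passed as well.

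Fgfr1 was at 94.8, 56.8 and 59.0 FPKM with the vector in batches 1, 2 and 3, each below AstroEGFR* of the same batch. The difference in log2(FPKM + 1) was -0.64, -0.73 and -0.70, which is close to the same size in every batch (mean -0.69, SE 0.21, limma adjusted p = 0.628). Fgfrl1 was at 79.9, 9.88 and 64.7 FPKM, below every AstroEGFR* library, and the log2 fold change was -1.77 (SE 0.63, limma adjusted p = 0.628). It did not overlap between the groups, as was the case for 11.5% of the features tested, 5.68% higher and 5.87% lower. AstroEGFR*2 Zfp423 was the lowest by far. Without that library or AstroEGFR*2 the log2 fold change of Fgfrl1 was -0.92, and with other libraries left out it was -2.36 to -2.02.

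Fgfr2 was at 27.0, 10.6 and 10.7 FPKM with the vector, lower than AstroEGFR* in batches 2 and 3 and slightly higher in batch 1 (log2 fold change -0.66, SE 0.33, limma adjusted p = 0.654). Fgfr3 was at 8.56, 0.628 and 8.14 FPKM (-0.97, SE 0.50, limma adjusted p = 0.654). The shares of Fgfr1, Fgfr2 and Fgfr3 in the receptor sum were 72.7% to 83.5%, 13.7% to 20.7% and 0.923% to 10.5%, which overlapped those of AstroEGFR*. With the vector, all 8 astrocyte markers had lower fitted values (median log2 fold change -1.77) and so did 7 of 8 progenitor markers (median -1.84), against 0.02 for all features, and 0 of them passed by limma. At an unadjusted p under 0.05 there were 3 of 8 and 1 of 8, all lower, against 7.38% of all features in either direction. The 1 progenitor marker is near that background. The part of these markers in the lower receptor values was not tested.

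Paired by the batch in the labels, none of the 4 ligands tested, Fgf1, Fgf2, Fgf7 and Fgf18, had the same sign of difference in all 3 batches with the vector. The deviations of the libraries from their group means correlated at -0.11 and -0.26 within batches 2 and 3 of this comparison, and at 0.43 and 0.50 between PT and AstroEGFR* of the same batches. Fgf1 was at 0.473, 0.125 and 5.48 FPKM in batches 1, 2 and 3, lower than AstroEGFR* of the batch in batches 1 and 2 and higher in batch 3. Fgf7 was at 13.7, 86.2 and 0 FPKM, higher in batches 1 and 2 and lower in batch 3, where AstroEGFR*3 had 55.7 FPKM. Fgf2 was at 5.05, 11.3 and 1.96 FPKM, higher in batch 2 only. The log2 fold changes were -0.35 (SE 1.00) for Fgf1, -1.19 (SE 1.01) for Fgf2, 0.83 (SE 2.45) for Fgf7 and -0.46 (SE 0.66) for Fgf18, which was at 1.35, 0.798 and 0.193 FPKM, and their limma adjusted p were 0.931, 0.754, 0.933 and 0.859. Of the 13 other secreted ligands, 1 was tested here too, Fgf21, at 0.64 to 23.7 FPKM with the vector.

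Fgf7 and the sum of the fibroblast and meningeal markers had the same order of high and low libraries with the vector: highest in AstroEGFR*2 Zfp423, then AstroEGFR*1 Zfp423, and lowest in AstroEGFR*3 Zfp423. Fgf1 had the reverse order, and so did the astrocyte marker sums (59.4, 199 and 904 FPKM in these libraries) and the sums of 8 progenitor markers (289, 782 and 2430 FPKM). The microglial markers were high in the first 2 of these libraries and near 0 in the last. The part of these markers in the differences was not tested.

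In none of the pathway lists did a gene pass in this comparison. The largest differences of the co-receptor list (12 tested) were those of the glypican genes Gpc6 (log2 fold change -2.12) and Gpc4 (-2.10), both with a limma adjusted p of 0.628. Gpc4 was at 16.6 to 28.7 FPKM with the vector and at 30.3 to 183 FPKM in AstroEGFR*. Of 11 targets and inhibitors tested, 10 had lower fitted values, with a median of -0.24 against 0.02 for all features, and the largest differences were those of the inhibitor genes Spred2 (-1.63, limma adjusted p = 0.628) and Spred3 (-0.67, limma adjusted p = 0.752). Among heparan sulfate enzymes these were Glce (1.43, limma adjusted p = 0.654) and Hs3st1 (-0.79, limma adjusted p = 0.662), and among adaptors Grb2 (-0.97, limma adjusted p = 0.628) and Gab1 (-0.74, limma adjusted p = 0.692). Fgf13, the only homologous factor tested, had -0.80 (limma adjusted p = 0.72). Of these lists, Gpc4 and Spred2 had an unadjusted p under 0.05, against 7.38% of all features.

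PT and AstroEGFR* Zfp423 formed the remaining pair of groups. This comparison shares its PT libraries with the first and its vector libraries with the second, so the values are given beside theirs and not as a repeat. Of the 10 genes, 7 were tested and 0 passed, against 0.0161% of 12412 features. The 2 features that passed were Cacng5 and Efs, both higher in PT and named after their values were seen. At an unadjusted p under 0.05 limma gave 1983 features (16.0%), among them Fgfr2, Fgf1, Fgf2 and Fgf7.

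Fgf1 did not overlap, at 12.6 to 39.0 FPKM in PT and 0.125 to 5.48 FPKM with the vector (log2 fold change 3.63, SE 0.66, limma adjusted p = 0.137). Fgf2 at 0.306 to 0.720 FPKM in PT and 1.96 to 11.3 FPKM with the vector did not overlap either (-2.01, SE 0.50, limma adjusted p = 0.196). Fgfr2 at 2.51 to 7.11 FPKM in PT and 10.6 to 27.0 FPKM with the vector was again lower in every PT library (-1.35, SE 0.44, limma adjusted p = 0.25). Of all features tested, 14.5% did not overlap, 7.23% higher and 7.28% lower in PT.

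Whether Fgf1, Fgf2 and Fgf7 passed turned on AstroEGFR*3 Zfp423, while Fgfr2 did not pass without it either (-1.56, SE 0.50, limma adjusted p = 0.162). Without that library, limma called 629 of 12452 features (5.05%, with 1.0% higher and 4.05% lower in PT), among them Fgf1 (4.40, SE 0.47, adjusted p = 0.00434), Fgf2 (-2.52, SE 0.39, adjusted p = 0.0164) and Fgf7 (-5.06, SE 0.68, adjusted p = 0.00971). Fgf2 and Fgf7 were under 1 FPKM in every PT library and passed the filter here only through the vector group, so their calls are a description and no support. The same holds for the call of Fgf1. It was at 0.473 and 0.125 FPKM in AstroEGFR*1 Zfp423 and AstroEGFR*2 Zfp423, and passed the filter here only through PT. Without the same library, Spry2, Spry4, Etv1 and Etv5, the astrocyte marker Gja1 and the progenitor marker Olig2 were also called higher in PT. Called lower in PT were 5 of 6 microglial markers (Aif1, Csf1r, Cx3cr1, Itgam and Tmem119), which were also under 1 FPKM in every PT library and passed the filter only through the vector group, and 4 of 9 fibroblast and meningeal markers tested (Col1a1, Col1a2, Pdgfrb and Postn). The 2 vector libraries that remain are those with microglial sums of 435 and 264 FPKM and fibroblast and meningeal sums of 4920 and 7340 FPKM, and the part of these markers in the calls was not tested. In that library Fgf7 was listed at 0, Fgf1 was the highest and Fgf2 the lowest of its group. With it, Fgf7 had a log2 fold change of -3.34 (SE 1.31, limma adjusted p = 0.285), and the groups overlapped. Fgf1 over Fgf2 was 0.0937, 0.0111 and 2.80 with the vector in batches 1, 2 and 3, so that AstroEGFR*3 Zfp423 was the only library outside PT with more Fgf1 than Fgf2, and still below the lowest PT value of 41.3.

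Fgfr1 (-0.49, SE 0.28, limma adjusted p = 0.438), Fgfr3 (-0.13, SE 1.07, limma adjusted p = 0.969) and Fgfrl1 (1.37, SE 0.72, limma adjusted p = 0.398) overlapped between PT and AstroEGFR* Zfp423. The difference of Fgfrl1 was 0.45 without AstroEGFR*2 Zfp423 and 1.16 to 1.90 with another library left out. For Fgfr1, AstroEGFR*1 Zfp423 at 94.8 FPKM was above PT, and the other 2 vector libraries lay within the PT range of 39.9 to 66.2 FPKM.

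Of the pathway lists, 0 genes passed by limma between PT and AstroEGFR* Zfp423. All 11 targets and inhibitors tested had higher fitted values in PT (median 1.33, against -0.03 for all features), and 5 had an unadjusted p under 0.05, against 16.0% of all features in either direction, namely Spry1, Spry4, Spred2, Etv1 and Etv5. In the same comparison 7 of 8 progenitor markers (median 1.69) and 7 of 8 astrocyte markers (median 1.54) had higher fitted values in PT. All 6 microglial markers (median -3.47) and all 9 fibroblast and meningeal markers tested (median -3.87) had lower ones, and their part in the target values was not tested. The largest differences of the targets were those of Spry4 (2.61, limma adjusted p = 0.209) and Etv1 (2.19, limma adjusted p = 0.276). Among heparan sulfate enzymes they were those of Hs6st2 (-2.87, limma adjusted p = 0.233) and Sulf2 (2.0, limma adjusted p = 0.243), the latter at 8.60 to 59.4 FPKM with the vector and 79.4 to 166 FPKM in PT. Among co-receptors and binding proteins they were Flrt2 (-2.65, limma adjusted p = 0.274) and Gpc6 (1.13, limma adjusted p = 0.278), and among adaptors Gab1 (1.3, limma adjusted p = 0.328) and Shc1 (-1.17, limma adjusted p = 0.246). At an unadjusted p under 0.05, limma also gave 4 heparan sulfate enzymes (Sulf2, Hs6st1, Hs6st2 and Ndst2), 3 co-receptor genes (Flrt2, Gpc2 and Gpc6), Shc1 and Fgf11. Fgf11 had 1.44 (limma adjusted p = 0.243), Fgf13 0.54 (limma adjusted p = 0.657) and Fgf21 1.04 (limma adjusted p = 0.822).

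**Figure D5:**
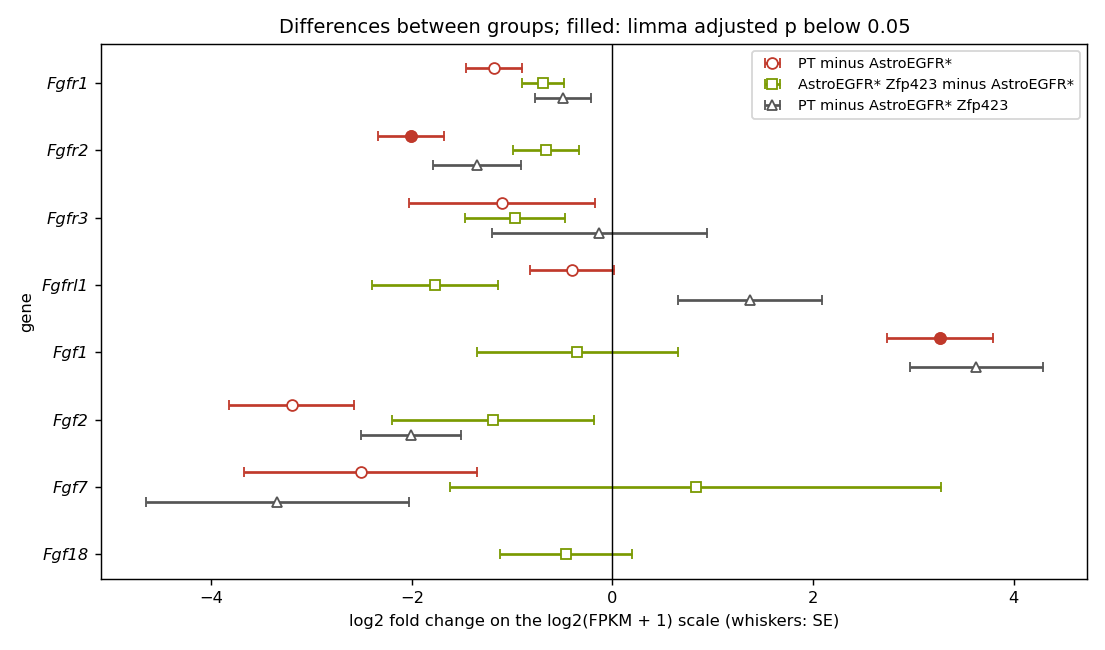
log2 fold change on the log2(FPKM + 1) scale with its SE for the genes tested, in the 3 comparisons, filled where the limma adjusted p is below 0.05. The 2 filled points are Fgfr2 at -2.01 and Fgf1 at 3.27 in PT minus AstroEGFR*.

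The features most like each receptor across the 10 libraries were found by the Pearson correlation of log2(FPKM + 1), among the 12476 features that averaged 1 FPKM or more. The libraries fall into 3 groups and share batches, so these correlations carry differences between groups and are given as a description. For Fgfr2 they were Prx (r = 0.951), Adamtsl4 (0.948) and Mkx (0.946), the last a homeobox gene. Those of Fgfr1 were Lamb2 (0.951), a laminin chain gene, 2610019F03Rik (0.946) and Syt17 (0.946), and those of Fgfr3 were Ak3 (0.952), Agbl3 (0.937) and Ttyh1 (0.936). Fgfrl1 had the highest likeness, with Crip2 (0.991), Tspan3 (0.981) and P2ry1 (0.978). For Fgfr4, which was near 0 in every library, Spag4 (0.954), 2610307P16Rik (0.924) and H2-Q4 (0.894) came first, on values at the limit of the table. By Spearman correlation, 1 of the 3 was still among the first 3 for each of Fgfr1, Fgfr2 and Fgfr3, and 0 of 3 for Fgfr4 and Fgfrl1.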

How the data were processed

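RNA was measured in 10 libraries, 3 of AstroEGFR*, 4 of PT and 3 of AstroEGFR* Zfp423. The authors deposited FPKM values, in 1 table of 23230 gene symbols, and the submitters' processing notes name TopHat 1.3, Cuffnorm and mm9. The labels name a TruSeq kit and a lentiviral Zfp423 vector, and the paper names stranded libraries after ribosomal RNA depletion and a retroviral vector. The values hold no counts, so the depth of each library in reads is unknown, no count model was used, and relative depth came from the most frequent ratio of each library to PT1 among symbols that were at 0 in 3 or more libraries.

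Symbols averaging 1 FPKM or more in the groups compared were fitted on log2(FPKM + 1) with limma 3.58.1 in R 4.3.3 (empirical Bayes with trend) over the whole table, with Benjamini-Hochberg adjustment and a threshold of 0.05. AstroEGFR* Zfp423 and AstroEGFR* were compared with the astrocyte batch as a block, the other pairs of groups without. The batch of each PT comes from the paper. Deviations from the group mean of PT and AstroEGFR* libraries of the same batch correlated at 0.35 to 0.50 over 12476 features, so the batches pair these libraries. The paper calls the astrocyte batches independent but does not give the number of animals behind each culture. The p-values measure the spread between these libraries, part of which may be technical. Exact permutation tests of single genes used scipy (Python 3.11.15, version 1.17.1). Promoter sequences came from RefSeq, GRCm38.p6, and exon overlaps from GENCODE vM21 on the same assembly. No coordinates of the matrix were used.

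All 10 genes were named, with those of each pathway list that passed or, where none did, the 2 with the largest change, the 3 features most like each receptor, and Zfp423. Genes, lists and tests were chosen with earlier results of these data known. Genes outside the rule, such as Nudt6, Ctbp2, Pdgfrb, Spry2 and Etv5, were chosen after their values were seen. Alternatives were a pseudocount of 0.1, no filter, median-ratio scaling, no trend, all libraries in 1 fit, the block added or removed, batch 3 left out, PT1 and PT4 averaged, and each library left out.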

Additional observations from a re-analysis of the deposited data

How the results depend on the processing

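The low relative depth of AstroEGFR*3 and PT3 limits what can be said of genes near 0, such as Fgfr4 and Fgf10. Between PT and AstroEGFR*, Fgfr1, Fgfr2, Fgfr3, Fgfrl1, Fgf1, Fgf2 and Fgf7 kept their direction in every alternative that tested them. Fgfr2 passed the threshold in 5 of 15 alternatives (adjusted p from limma 0.0201 to 0.17), Fgf1 in 4 of 15 (0.0338 to 0.157) and Fgf2 in 3 of 15 (0.0262 to 0.241). The cause of these changes was not tested, and fits without a library also have fewer samples.

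Among the FGF genes, 0 passed with no filter on low values, with all 10 libraries in 1 fit, without the libraries of batch 3 and with PT1 and PT4 averaged, and leaving out each library gave 0 to 1. Of all features, 82 passed with all 10 libraries in 1 fit, 8 without batch 3, 61 with PT1 and PT4 averaged, and 7 to 123 with a library left out (7, 54, 97, 70 and 58 without AstroEGFR*1, AstroEGFR*3, PT1, PT2 and PT4). With the replicate block, which the pairing of batches warrants here, 475 passed, against 152 without it.

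Between AstroEGFR* Zfp423 and AstroEGFR*, 2 features, Mir1907 and Snord111, passed without the block, and 0 to 60 with a library left out (47 without AstroEGFR*2 and 60 without AstroEGFR*2 Zfp423), and 0 of the FGF genes in any alternative. The deviations of same-batch libraries correlated at 0.24, -0.11 and -0.26 in batches 1, 2 and 3, while AstroEGFR*2 Zfp423 correlated best with AstroEGFR*3 (0.31) and AstroEGFR*3 Zfp423 with AstroEGFR*2 (0.22). The labels were used as given, and nothing was crossed. PT2 and PT3 each correlated best with AstroEGFR* of their own batch (0.43 and 0.50). With a library left out, the log2 fold change spanned -1.67 to 0.47 for Fgf1, -2.40 to 0.06 for Fgf2, -1.85 to 4.16 for Fgf7 and -0.96 to 0.26 for Fgf18. The sign of Fgf1 turned without AstroEGFR*1 or AstroEGFR*1 Zfp423 (0.14) and without AstroEGFR*2 or AstroEGFR*2 Zfp423 (0.47). Fgf7 turned without AstroEGFR*2 or AstroEGFR*2 Zfp423 (-1.85). Fgf2 turned without AstroEGFR*3, AstroEGFR*3 Zfp423 or both with batch 3 (0.06), and Fgf18 without AstroEGFR*3 Zfp423 (0.26).

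Between PT and AstroEGFR* Zfp423, 0 features passed with a pseudocount of 0.1, with no filter and with PT1 and PT4 averaged, 28 with all 10 libraries in 1 fit, 20 with the replicate block (same-batch correlations of -0.01 to 0.19, so the libraries were not taken as paired), 589 without batch 3, and 0 to 629 with a library left out (213 without PT2 and 629 without AstroEGFR*3 Zfp423). Of the FGF genes, 3 passed without batch 3, and 0 to 3 with a library left out. The 3 were Fgf1, Fgf2 and Fgf7 in each case, with the filter limit given above. Fgfr3 spanned -0.97 to 0.52 with a library left out and turned without PT2 (0.18), PT3 (0.52), AstroEGFR*1 Zfp423 (0.30), AstroEGFR*3 Zfp423 (0.27) and batch 3 (0.93). With Fgfrl1 in the receptor sum, the median share of Fgfr1 was 38.9% in AstroEGFR*, 27.9% in PT and 45.1% in AstroEGFR* Zfp423, instead of 76.6%, 83.9% and 75.8%.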
